A study of Mus musculus with 2 samples.

Results

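The major histocompatibility complex genes were followed in DNase-seq maps of the mouse urinary bladder. The set held 39 of the 21938 protein-coding genes of the annotation. It was taken by name and place, as the protein-coding genes of chromosome 17 whose symbols begin with H2- (34 genes) together with Tap1, Tap2, Tapbp, Psmb8 and Psmb9. DNase I cuts DNA that is not wrapped in nucleosomes or covered by protein, so dense cutting marks open chromatin, and a short protected stretch inside an open region, a footprint, marks a place where protein may have sat. The study holds 1 group of 2 libraries, biological replicates 1 and 2 per the labels, from urinary bladder tissue of adult female B6CASTF1/J mice aged 18 to 20 months, with no treatment or second group named. B6CASTF1/J mice are a first-generation cross of a C57BL/6 and a CAST parent, so each gene has 1 copy from each, the deposited values do not separate the copies, and positions and sequence below are those of the C57BL/6J reference. The labels do not say whether the tissues came from 1 animal or several, so the spread between libraries may be technical.

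The complex encodes the molecules that show peptides to T cells. Class Ia proteins (H2-K1, H2-D1) carry peptides from inside the cell on the surface of most nucleated cells, whereas class II proteins (the H2-A and H2-E chains) carry peptides from engulfed material, mainly on dendritic cells, macrophages and B cells. Tap1 and Tap2 form the pump that moves peptides into the endoplasmic reticulum, Tapbp encodes tapasin, which holds class I molecules at that pump, and Psmb8 and Psmb9 encode subunits of the immunoproteasome that cuts the peptides. H2-DM and H2-O tune peptide loading of class II. The Q, T and M genes are class Ib relatives, many with restricted expression. Promoters of class I and class II genes are known to share an enhanceosome in which RFX binds the X1 box, CREB-family factors the X2 box and NF-Y the Y box. CIITA joins this complex for class II and NLRC5 for class I. Class I promoters also hold an NF-kB site and an interferon response element.

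Sequences are shown first, because an X core followed by a Y core was found in some accessible promoters of both classes. Each member with a promoter peak in both libraries was represented by its strongest promoter peak found in both. Peaks that also lay in a non-member's promoter were left out where another existed. The 300 bases around the centre of that peak were searched on both strands. Psmb9 and Tap1 share 1 such window, so the 22 genes gave 21 windows. For comparison, 12702 windows were taken at the strongest promoter peak found in both libraries of all protein-coding genes, members among them. Shared peaks were kept there, so H2-DMa and Tapbp entered with peaks that also lie in a neighbour's promoter. An X1 core (GCAAC) or X2 core (TGACG) followed in the same orientation, starting at most 60 bases further on, by a Y core (ATTGG) was present in 6 of the 21 windows (28.6%) and in 4.97% of all windows. The 6 genes were H2-K1, H2-D1, H2-Q7 and H2-M3, from 10 class I windows, and H2-Aa and H2-Eb1, from 6 class II windows. In all 6 a deposited footprint overlapped an X or Y core of the arrangement in both libraries, an overlap that a single base was enough to count. At H2-D1, H2-Q7 and H2-M3 no footprint reached the Y core of the arrangement in either library. Over all windows, X2 cores were footprinted in 47.8% of matches in replicate 1 and 49.3% in replicate 2, and Y cores in 27.6% and 29.5%. The share for whole arrangements over all windows was not counted.

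The stretches from the X2 core to the Y core, both in capitals, were of nearly 1 length. They are printed in the direction of each gene, with coordinates on mm10.
H2-K1, chr17:34000359-34000388, minus strand: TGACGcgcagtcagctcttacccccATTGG
H2-D1, chr17:35262993-35263022, plus strand: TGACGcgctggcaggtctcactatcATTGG
H2-Q7, chr17:35439091-35439119, plus strand: TGACGtgtaacagttctcacccctATTGG
H2-M3, chr17:37270188-37270217, plus strand: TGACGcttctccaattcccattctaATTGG
H2-Aa, chr17:34287867-34287897, minus strand: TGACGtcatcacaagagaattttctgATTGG

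The 5 stretches ran from 29 to 31 bases, although the search allowed up to 60 between the starts of the cores. An X2 core followed by a Y core at any allowed spacing was in 341 of the 12702 windows (2.68%), and at a length of 29 to 31 bases in 41 of them (0.323%). This range was chosen after the members' lengths were seen. H2-Eb1 had an X1 core but no exact X2 core, and its X1 to Y stretch was 37 bases long, beside 38 in H2-Aa. Both class II stretches lie upstream of the first annotated exon. The upstream DNA of the 2 windows is printed below in the gene's direction, with the X1, X2 and Y cores and their matches on the other strand in capitals. The H2-Aa stretch runs past its peak, which ends at 34287980.
H2-Aa, chr17:34287824-34288030, minus strand: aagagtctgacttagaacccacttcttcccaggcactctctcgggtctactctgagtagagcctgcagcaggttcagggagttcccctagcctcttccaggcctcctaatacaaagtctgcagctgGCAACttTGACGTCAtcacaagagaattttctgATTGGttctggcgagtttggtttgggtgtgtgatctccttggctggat
H2-Eb1, chr17:34305721-34305866, plus strand: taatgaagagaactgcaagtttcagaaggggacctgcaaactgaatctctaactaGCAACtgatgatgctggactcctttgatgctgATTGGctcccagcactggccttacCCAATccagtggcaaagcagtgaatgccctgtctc

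None of the class I arrangements began with an X1 core of the letters GCAAC, and footprints in class I promoters fell on another shared stretch. The letters ACTGNTGAC, which end inside the X2 box, were picked after the footprints had been read and are given as a description. They occurred in 7 of the 21 member windows (33.3%) and in 91 of the 12702 windows (0.716%). In 6 class I genes they ran in the gene's direction, and in Psmb8 on the opposite strand. The class I stretches are printed with 8 bases on either side and the matched letters in capitals.
H2-K1, chr17:34000377-34000401, minus strand: gtccggacACTGTTGACgcgcagtc
H2-D1, chr17:35262980-35263004, plus strand: gccgggacACTGATGACgcgctggc
H2-Q4, chr17:35379500-35379524, plus strand: gcccggacACTGATGACttactggc
H2-Q6, chr17:35424734-35424758, plus strand: gccaggacACTGATGACctgtaaca
H2-Q7, chr17:35439078-35439102, plus strand: gccaggacACTGATGACgtgtaaca
H2-M3, chr17:37270175-37270199, plus strand: gcccggatACTGATGACgcttctcc

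A footprint overlapped these letters in both libraries at H2-K1, H2-D1, H2-Q4, H2-Q7 and H2-M3, and in replicate 1 only at H2-Q6. Psmb8, the immunoproteasome subunit, also had a footprint there in both. Of the 92 matches in all windows, 34 were footprinted in each library. The class I genes are copies of one another, so these matches are not independent of each other. The same holds for the class I genes among the X to Y arrangements above and the interferon elements below.

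The NF-kB site (GGGATTCCC) and the class I form of the interferon element (GAANNGAAA) stood side by side in 4 class I promoters. They are printed together in the gene's direction, with both in capitals and the interferon element read on its other strand.
H2-K1, chr17:34000429-34000457, minus strand: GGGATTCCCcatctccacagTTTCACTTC
H2-D1, chr17:35262924-35262952, plus strand: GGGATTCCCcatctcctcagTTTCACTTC
H2-Q6, chr17:35424678-35424706, plus strand: GGGATTCCCcatctccccagTTTCACTTC
H2-Q7, chr17:35439023-35439050, plus strand: GGGATTCCCatctccccagTTTCACTTC

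The NF-kB letters were in 4 of 21 member windows (19.0%) and in 55 of 12702 windows (0.433%). All 4 are class I genes, so these matches are not independent of each other either. The NF-kB letters overlapped a footprint in both libraries at H2-D1 and H2-Q7 and in neither library at H2-K1 and H2-Q6. At H2-Q7 the footprints ended at 35439023 in replicate 1 and 35439025 in replicate 2, so they reached only the first bases of the site. The H2-Q6 site lies outside its peak, which starts at 35424721. Over all windows 42.9% of 56 NF-kB matches were footprinted in replicate 1 and 33.9% in replicate 2. The interferon element of class I form was in 9 member windows (42.9%), 7 of them class I (H2-K1, H2-D1, H2-Q4, H2-Q6, H2-Q7, H2-T24 and H2-M3) beside H2-DMb2 and Tap2, and in 4.88% of all windows. It was footprinted in 1 of the 9 in replicate 1, at H2-Q4, and in none in replicate 2. Over all windows 16.6% of 649 such matches were footprinted in replicate 1 and 19.9% in replicate 2. The general form (GAAANNGAA), which can overlap the other on the same strand, was in 5 member windows (23.8%) and 5.58% of all. At Tapbp 2 overlapping copies of it met a footprint in replicate 2.

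All 4 elements can be read in H2-K1, a classical class I gene. H2-M3, a class Ib gene that presents formylated peptides, has the interferon, X2 and Y letters and no exact NF-kB match. The upstream DNA outside annotated exons is printed with the NF-kB, interferon, X2 and Y letters in capitals, on whichever strand they lie.
H2-K1, chr17:34000348-34000520, minus strand: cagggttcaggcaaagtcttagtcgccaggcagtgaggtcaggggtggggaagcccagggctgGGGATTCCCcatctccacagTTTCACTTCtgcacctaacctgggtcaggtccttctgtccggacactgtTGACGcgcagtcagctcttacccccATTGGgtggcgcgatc
H2-M3, chr17:37270071-37270219, plus strand: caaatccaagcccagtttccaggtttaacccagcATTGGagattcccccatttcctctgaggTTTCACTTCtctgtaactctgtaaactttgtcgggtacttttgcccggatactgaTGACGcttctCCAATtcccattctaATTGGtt

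Other letters were commoner or rarer in the members' windows than in windows at large, as the plot of motif shares shows. The Y core alone was in 71.4% of member windows and 37.4% of all windows. The SP1 box (GGGCGG) was in 38.1% and 68.7%, and the CTCF core (AGGNGGC) in 23.8% and 45.8%. The 300-base windows of members held a median of 11 CpG dinucleotides, against 24 over all windows. A match is a description of the letters and not evidence that a factor was bound.

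**Figure D1:**
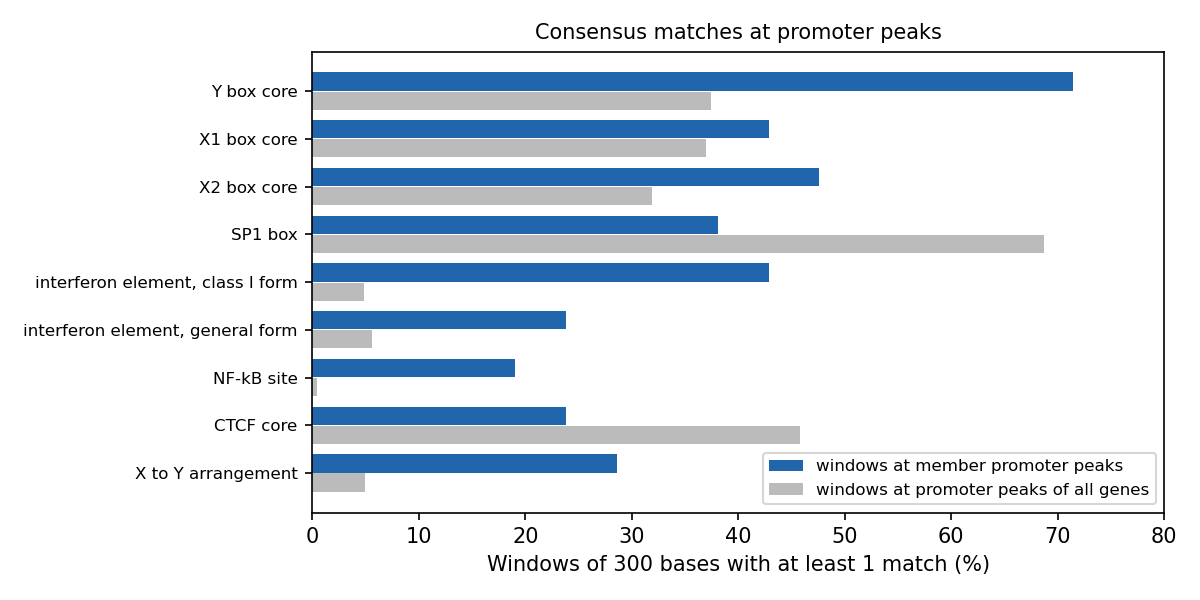
Share of 300-base windows, in percent, holding at least 1 match to each motif, for the 21 windows at member promoter peaks (blue) and the 12702 windows at promoter peaks of all protein-coding genes (grey). The X to Y arrangement, the interferon elements and the NF-kB site had larger shares among members, and the SP1 box and CTCF core smaller ones.

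Promoter accessibility was lowest in the M group of the complex. A promoter was the DNA within 1 kb of any annotated transcription start site (TSS), and it was counted as open in a library where it held a deposited peak. Of the 39 genes, 22 (56.4%) were open in replicate 1 and 24 (61.5%) in replicate 2, a mean of 59.0% ± 3.63 (SD, n = 2), beside 65.2% and 67.6% of all protein-coding genes. The same 22 were open in both, which is 56.4% beside 64.2% of all genes. Both class Ia genes, all 5 processing genes and 6 of the 9 class II genes were open in both libraries. Of the 22 class Ib genes 8 were, 7 of them in the Q and T groups and 1 in the M group. Inside the 3.57 Mb from Tapbp to H2-M2, 85 of the 142 other protein-coding genes (59.9%) were open in both.

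Levels below are the authors' peak signal, summed over the peaks of a promoter, in deposited units whose scale is not stated. Signal was always a whole multiple of 1 step, so 1 step is treated here as 1 count. The step was 0.00853 in replicate 1 and 0.00884 in replicate 2, and the median peak stood at 96 and 86 of these counts. Among genes with a promoter peak the median was 3.74 in replicate 1 and 5.41 in replicate 2 for members, and 4.41 and 4.78 for all genes. Because the tissue was measured in bulk, a higher signal from more cells of a type and from more open chromatin per cell cannot be told apart.

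**Figure D2:**
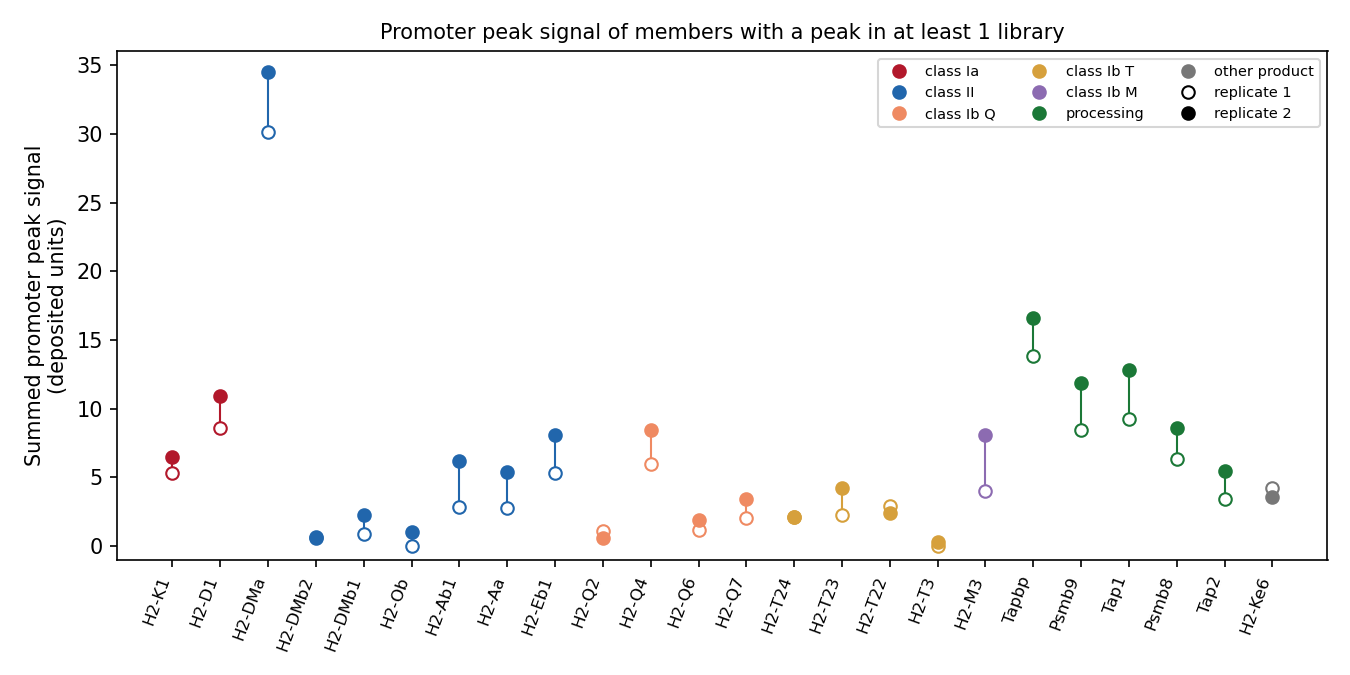
Summed promoter peak signal in deposited units (vertical axis) for the 24 members with a peak in at least 1 library, grouped by role, with open circles for replicate 1, filled circles for replicate 2 and a line joining them. H2-DMa and Tapbp stand highest through peaks that also lie in a neighbour's promoter, and the class II genes H2-Ab1, H2-Aa and H2-DMb1 lie higher in replicate 2.

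The classical class I genes were open at levels at or above the median gene. H2-D1 measured 8.57 in replicate 1 and 10.9 in replicate 2, from a single peak at chr17:35262901-35263100 that holds 1005 and 1234 counts. H2-K1 measured 5.35 and 6.46, of which 4.596 and 5.037 came from the peak at its start, chr17:34000261-34000500 in replicate 1. Their levels did not overlap, with every H2-D1 value above every H2-K1 value. The fold of replicate 2 over replicate 1 at these peaks was 1.27 for H2-D1, with an exact binomial 95% interval of 1.17 to 1.38, and 1.10 for H2-K1, with 0.973 to 1.24. These intervals cover counting error only and hold if 1 step is 1 cut. The folds were not adjusted for the median gene, which also read higher in replicate 2.

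The peptide supply genes were open in both libraries without exception. Psmb9 and Tap1 are transcribed away from each other and share 1 peak, chr17:34187341-34187560, with a signal of 7.55 in replicate 1 and 10.64 in replicate 2. This was the second strongest of the representative peaks of the complex, after that of H2-D1. Psmb8 measured 6.34 and 8.60 over its promoter, and Tap2 measured 3.43 and 5.43. Tapbp summed to 13.8 and 16.6, but its peak at the outermost start, 6.23 and 6.12, also lies in the promoter of Zbtb22. The strongest peak of Tapbp that is not shared with a neighbour, at chr17:33919381-33919640 in replicate 1, measured 3.53 and 3.35.

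The class II genes covered the whole range from closed to strongly open. H2-Eb1, an E beta chain whose alpha partner is not made in C57BL/6 mice, measured 5.36 in replicate 1 and 8.10 in replicate 2 over 3 peaks. Whether that partner is made in this cross, which also has a CAST copy, was not examined. H2-Ab1, the A beta chain, measured 2.87 and 6.19, and H2-Aa, the A alpha chain, 2.79 and 5.39. All 3 were higher in replicate 2. The DM chains were unequal among themselves. H2-DMb1 measured 0.912 and 2.28, and H2-DMb2 0.631 and 0.592, which is within 0.0275 (SD, n = 2) of its mean. H2-DMa reached 30.1 and 34.5, but all of its peaks other than 1 also lie in the promoter of Brd2, a chromatin reader gene whose transcripts start among those annotated to H2-DMa. The unshared peak of H2-DMa, chr17:34135341-34135480 in replicate 1, measured 7.03 and 8.32. It held 2 footprints over CTCF core letters in both libraries, and the first has the same edges in both. It is printed with the CTCF core in capitals.
H2-DMa, chr17:34135358-34135384, plus strand: ttctgccgccAGGCGGCgctgctttga

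H2-Ob, the beta chain of the loading inhibitor H2-O, had a promoter peak in replicate 2 only, at 1.02. H2-Oa, its partner, and H2-Eb2 had none in either library.

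Among class Ib genes the Q and T groups were partly open. H2-Q4 measured 5.96 in replicate 1 and 8.47 in replicate 2, the highest of its group. H2-Q7 measured 2.01 and 3.40, H2-Q6 1.18 and 1.89, and H2-Q2 1.07 and 0.592. H2-Q1 and H2-Q10 had no promoter peak. In the T group, H2-T23, which encodes the Qa-1 molecule, measured 2.24 and 4.20. H2-T22 measured 2.95 and 2.44, from peaks that also lie in the promoter of Gm6034, and H2-T24 2.13 and 2.11. H2-T3 had a peak of 0.3004 in replicate 2 only.

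The M group was closed except for 1 gene. H2-M3 measured 4.04 in replicate 1 and 8.08 in replicate 2. The other 11 genes, H2-M1, H2-M2, H2-M5, H2-M9, H2-M11 and H2-M10.1 to H2-M10.6, had no promoter peak in either library. H2-Ke6 is a member by name only, since it encodes a hydroxysteroid dehydrogenase, and measured 4.26 and 3.61.

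The authors also deposited stretches with a cut-rate false discovery rate under 0.05. None of the 17 members without a promoter peak in replicate 1, and none of the 15 in replicate 2, had such a stretch in the promoter. Over all genes without a promoter peak, 181 of 7627 and 175 of 7107 had one. The 300 bases at the outermost start of closed members held a median of 3 CpG, as did those of all closed genes, beside 8.5 for open members and 23 for all open genes.

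**Figure D3:**
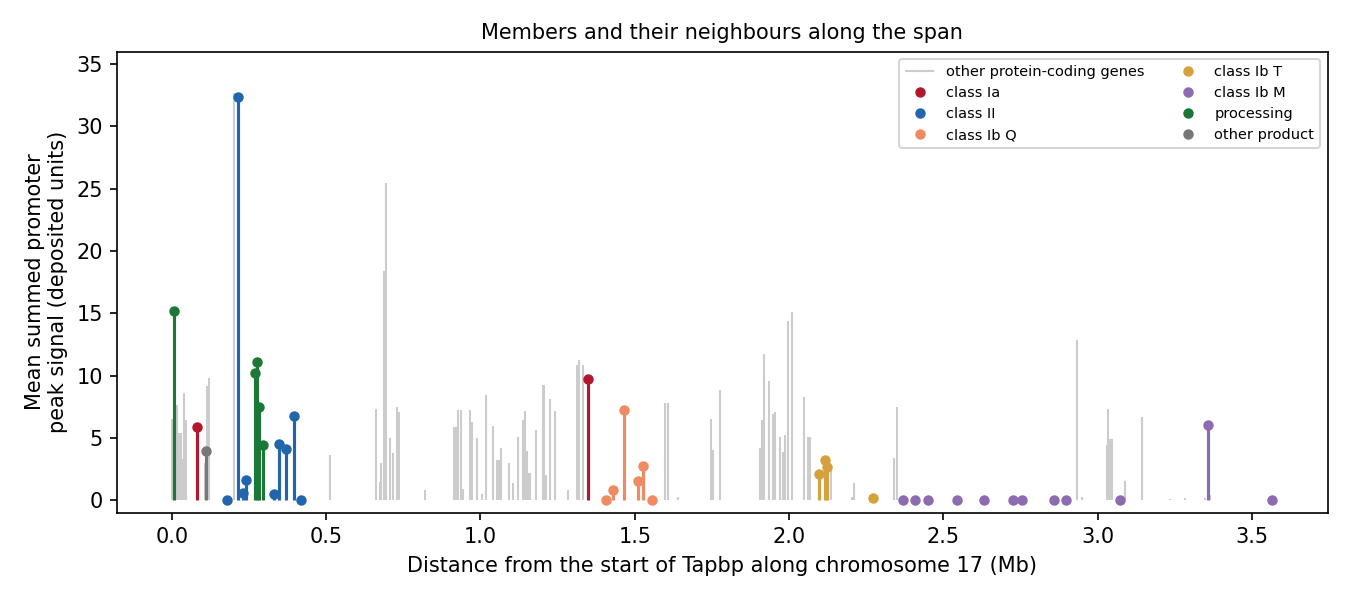
Mean summed promoter peak signal over both libraries, in deposited units (vertical axis), against distance along chromosome 17 from the start of Tapbp in Mb (horizontal axis), with members as coloured points by role and the 142 other protein-coding genes as grey lines. Most class II and processing genes near 0.3 Mb lie above 0, with H2-Ob and H2-DMb2 low and H2-Oa and H2-Eb2 at 0. The M genes past 2.3 Mb lie at 0 apart from H2-M3.

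Peak density in the surrounding DNA varied along the span. From Tapbp to H2-Ke6 peaks numbered 20.5 per 100 kb in replicate 1 and 27.6 in replicate 2. From H2-Oa to H2-Eb2, the stretch of class II and processing genes, they numbered 16.1 and 18.9. Between H2-Eb2 and H2-D1, where no member lies, they numbered 10.53 and 13.02. From H2-M10.2 to H2-M5, with 10 members and none open, they numbered 2.98 and 4.25, beside 3.20 and 4.24 over all autosomes, X and Y. From H2-D1 to H2-Q10 the values were 5.19 and 7.55, and from H2-T24 to H2-T3 they were 9.75 and 11.4.

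Taking gene bodies with 5 kb on either side, the members' loci held 75 peaks in replicate 1 and 94 in replicate 2, each peak counted once. Of these, 20 and 27 lay outside the promoter of every protein-coding gene. By the mean of both libraries, the strongest found in both was at chr17:35258241-35258440, upstream of H2-D1, with 4.41 and 5.32. The 4 next strongest by that mean were all at class II genes. In replicate 1 alone a peak between H2-T23 and H2-T22 (1.46) and another inside H2-DMa (1.29) stood above all 4 of these. The 4 lay near H2-Aa at chr17:34291701-34291860 (1.16 and 3.11), inside H2-Ab1 at chr17:34261581-34261760 (0.895 and 2.91), inside H2-Eb1 at chr17:34313541-34313720 (1.17 and 2.40) and near H2-Ob at chr17:34235061-34235260 (1.25 and 2.25). Each is given with its replicate 1 coordinates and its values in replicates 1 and 2. The ranking used both libraries, so values that were high in replicate 2 helped to choose these peaks. Weaker class II peaks that were lower in replicate 2 lay near H2-Ob at chr17:34236809-34236967 (0.665 and 0.610) and near H2-Eb1 at chr17:34303761-34304000 (0.708 and 0.495).

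Footprints per promoter peak were counted next. The members' promoter peaks held 126 footprints in 45 peaks in replicate 1 and 145 in 55 peaks in replicate 2, or 2.80 and 2.64 per peak, beside 2.61 and 2.51 over all promoter peaks. Those of class II genes held 2.93 and 3.29 per peak, and those of the Q genes 2.50 and 1.14.

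Of the 6 class II promoters open in both libraries, 5 read higher in replicate 2. For each gene open in both libraries the log2 ratio of replicate 2 over replicate 1 was centred on the median of all 14085 such genes, which was 0.13 before centring, and the SD over those genes was 0.40. The members' median was 0.35, and 17 of 22 lay above 0, beside 50% of all genes. In all, 9 of the 22 lay more than 1 SD above 0, beside 14.5% of all genes, and they were H2-DMb1, H2-Ab1, H2-Aa, H2-Eb1, H2-M3, H2-T23, H2-Q6, H2-Q7 and Tap2. The other genes inside the span had a median of -0.02, with 39 of 85 above 0. With 1 library on each side there is no test of this difference.

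By role, the median was 0.64 for the 6 class II genes, 0.33 for the 5 processing genes and 0.18 for the 2 class Ia genes. For the 8 class Ib genes it was 0.46, and it was 0.14 with only the strongest peak of each gene and 0.10 with the shorter peak list. The largest class II values were 1.19 for H2-DMb1, 0.97 for H2-Ab1 and 0.82 for H2-Aa. H2-DMa, at 0.06, changed sign when only the strongest peak was used or shared peaks were left out, and H2-DMb2 stood at -0.22. Tapbp, at 0.13, changed sign with only its strongest peak or with the starts of protein-coding transcripts alone. H2-T23, at 0.77, was at -0.15 with only its strongest peak and at 0.08 with the shorter peak list. H2-Q6, at 0.55, was at 0.16 and 0.10 under the same settings. H2-T24, at -0.15, was at 0.12 with only its strongest peak. H2-Q2 and H2-T22 lay more than 1 SD below 0, at -0.99 and -0.41. Each of them had a weak second peak called in replicate 1 only, and their representative peaks had uncentred folds of 1.01 and 1.03.

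**Figure D4:**
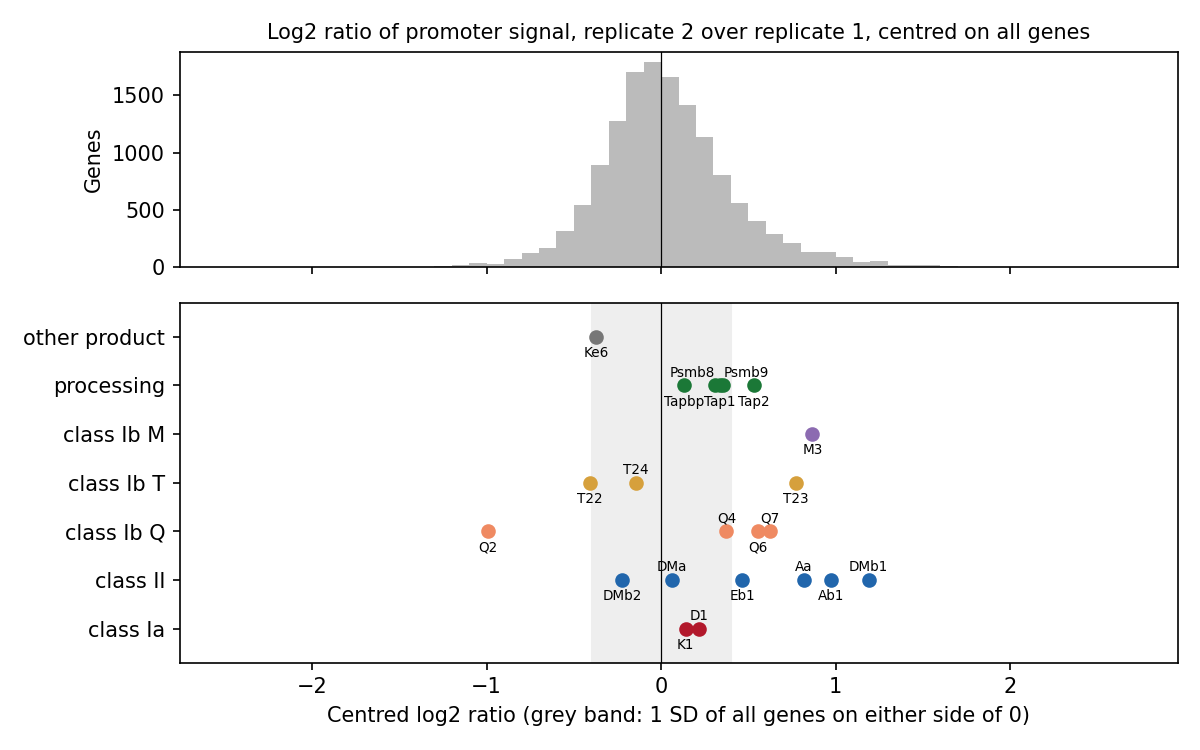
Log2 ratio of promoter signal, replicate 2 over replicate 1, centred on all genes (horizontal axis), as a histogram of the 14085 genes open in both libraries (top) and as points for the 22 open members by role (bottom, names without the H2- prefix), with a grey band of 1 SD of all genes on either side of 0. Of 6 class II genes, 4 lie to the right of the band, while both class Ia genes lie within it.

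Single class II peaks ranged from folds beyond counting error to folds within it. These folds were not centred, and the median log2 ratio of all genes before centring was 0.13. At the H2-Aa promoter peak the counts were 327 and 610 in replicates 1 and 2, a fold of 1.93 with a 95% interval of 1.69 to 2.22. The first H2-Ab1 peak held 217 and 420, a fold of 2.01 with 1.70 to 2.37, and the H2-DMb1 peak 107 and 258, a fold of 2.50 with 1.99 to 3.16. The intervals included 1 at the H2-DMb2 peak, with a fold of 0.938 and 0.664 to 1.32, and at the H2-Eb1 peak that starts at 34309801 in replicate 1, with 1.10 and 0.862 to 1.40. Outside class II, the H2-M3 peak at the start held 365 and 765, a fold of 2.17 with 1.92 to 2.47. Away from promoters, the 8 peaks of class II loci found in both libraries had a median fold of 1.59, the 11 of other members' loci 1.21, and all 46850 such peaks 1.15.

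Markers of other cell types were read in the same way. The summed promoter signal of 5 T cell genes was 1.48 in replicate 1 and 4.05 in replicate 2, with 2 and 3 of them open and Cd4 and Cd8a at 0 in both. Most of that sum came from Tcf7 (1.13 and 2.89), beside weak peaks at Cd3d (0.350 and 0.627) and Cd3e (0 and 0.530). The 8 macrophage and dendritic cell genes summed to 12.0 and 14.2, with 3 and 4 open. Adgre1, Csf1r, Itgax and Flt3 were at 0 in both, and Spi1, a myeloid and B cell regulator, went from 0 to 1.64. Irf8 went from 5.44 to 6.53, while Cd68 was lower in replicate 2 (1.16 and 1.07), as was Zbtb46 (5.39 and 4.92). The 6 B cell genes summed to 6.77 and 7.49, with 3 open in each library and Cd79a and Ms4a1 among those at 0. The bladder's own markers were open in full in both libraries. The 9 urothelial genes summed to 36.6 and 38.0, the 6 smooth muscle genes to 11.01 and 11.74 and the 5 fibroblast genes to 21.8 and 23.4. The 4 endothelial genes summed to 9.58 and 9.89, with Pecam1 at 0, and most of the sum came from Esam (8.135 and 7.08). Kdr went from 0.912 to 1.95 and Cdh5 from 0.529 to 0.857, at 0.97 and 0.57 in the centred log2 ratio. The part of other cell types, endothelium included, in the class II difference was not tested.

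Genes of the antigen presentation pathway outside the complex were mostly open. A list of 35 was drawn up, of which 34 were in the annotation as named, and 32 of them (94.1%) had a promoter peak in each library. The 5 with the highest mean promoter signal were Nfyc at 13.5 and Nfya at 12.7, both NF-Y subunits that bind the Y box, Calr at 11.9, a chaperone of class I folding, Psme2 at 11.5, a proteasome activator subunit, and Ifngr1 at 10.7, a chain of the interferon gamma receptor. Ctss, a protease that trims the class II invariant chain, had none in either library.

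The regulators of the 2 classes were unequal in promoter signal. Nlrc5, the class I coactivator, measured 2.55 in replicate 1 and 3.32 in replicate 2. Ciita, the class II coactivator, had a weak peak of 0.358 in replicate 1, where the median of all peaks was 0.819, and none in replicate 2. Cd74, the invariant chain, measured 0.614 and 0.884, while B2m, the light chain of class I, measured 5.99 and 7.84. Cd86, a costimulatory ligand, had a peak of 0.460 in replicate 2 only. The centred log2 ratio of replicate 2 over replicate 1 had a median of 0.06 over the 31 pathway genes open in both libraries. It lay above 1 SD for Psme3 at 0.56 and for Cd1d1 at 0.53.

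Sequence copies limit some of these values. The share of 32-base words that occur once in the reference was 100% over the representative peaks of all class II and processing genes. It was 88.0% at H2-K1, 89.9% at H2-D1, 98.2% at H2-Q4, 70.6% at H2-T23 and 71.0% at H2-T22. At H2-Q6 and H2-Q7 it was 53.0% and 41.3%, and how reads that match several places were treated is not given in the sources used here. The 17 members not open in both libraries had a median of 98.5% over the 300 bases at their outermost start. Among them it was 55.8% at H2-Q1, 64.7% at H2-M1 and H2-M9, and 67.3% at H2-M10.3 and H2-M10.5.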

How the data were processed

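DNase-seq peaks, footprints and stretches of significant cut rate were used per library, on mm10 per the deposited file listing. No aligner or peak caller is given in the sources used here. The longer deposited peak list of each library (84591 and 112174 peaks) was used, with the signal the authors deposited per peak, which, divided by the library's step, came to a whole number (tolerance 0.02) in 100% of peaks. Total depth is unknown. The deposited cut-rate values are false discovery rates on the p-value scale, listed under 0.05, and every deposited footprint carries a p-value threshold of 0.01.

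Genes and TSSs came from GENCODE M21 and sequence from GRCm38.p6. Overlap meant at least 1 base. Summaries used Python 3.11.15, numpy 2.4.6, pandas 2.3.3 and scipy 1.17.1, and functions were tested on simulated data. Values are per library, or means with SD over n = 2. No test was possible between groups. Members, gene lists and motifs were chosen with earlier results of these data known.

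Values are given for each member with a promoter peak. Of pathway genes, the 5 with the highest mean signal and those without a peak were to be named; Nlrc5, Ciita, Cd74, B2m, Cd86, Psme3 and Cd1d1 were chosen after their values were seen. Ifi30 was not found under that name, and some listed genes are not reported here. Sequences of up to 6 promoters were planned, and stretches inside annotated exons were kept to 30 bases or left out.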

Additional observations from a re-analysis of the deposited data

How the results depend on the processing

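The number of open members (mean of both libraries 23) ran from 20.5 to 23.5 over promoter widths of 500 bp and 2 kb, the shorter peak list, the 42295 strongest peaks of each library, other sets of starts, and shared peaks left out. The median summed promoter signal of open members (4.57) was 3.25 with only the strongest promoter peak of each gene. Locus peaks (84.5) numbered 55.0 in gene bodies alone. Footprints per member promoter peak (2.72) were 2.55 when a footprint had to lie wholly inside the peak and 2.97 with the shorter list. On each library alone, open members were 22 and 24, open pathway genes 32 and 32, the median signal 3.74 and 5.41, locus peaks 75 and 94, and footprints per peak 2.80 and 2.64. The class II median of the centred log2 ratio ran from 0.63 to 0.82 over 5 centred alternatives and was 0.77 without centring. Of the alternatives for the ratio, 3 were chosen after seeing the data, as were 2 for the promoter signal and 1 for the number of open members. No paired analysis was possible because the study has 1 group. Depth limits the weakest peaks, such as the 34 counts at H2-T3.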
